A study of Drosophila melanogaster with 5 samples.

Results

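The genes described here encode subunits of the vacuolar ATPase (V-ATPase) of Drosophila melanogaster, and they were taken as every gene whose symbol in the deposited table starts with Vha. The rule found 32 of 14094 genes and used no measured value. Of these, 25 had at least 1 count in some library and 7 were at 0 in all 5 libraries. A filter on low counts left 21 of the 32 for testing.

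The V-ATPase is a rotary proton pump. Its peripheral sector, V1, hydrolyses ATP in the cytosol, and its membrane sector, V0, carries protons through a ring of c subunits into lysosomes, endosomes and secretory vesicles. In the fly, several subunits are encoded by a gene used in most tissues and by further gene copies with narrow expression, some of them known from testis, gut or neurons. Loss of the pump is known to impair endosomal degradation and Notch signalling in fly epithelia, the follicle cells of the ovary among them.

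Total RNA came from whole adult ovaries dissected between day 1 and day 3 after eclosion. The knockout group, 2 libraries, is labelled BEAF 32-AB KO, a loss of function of the insulator protein BEAF-32, which binds near promoters. The control group, 3 libraries, is labelled wild type with the genotype nosGAL4;MKRS/TM6, that is, a germline GAL4 driver with balancers of chromosome 3, neither of which the knockout label names. Differences between the stocks other than BEAF-32 therefore cannot be told apart from it. The series' design text speaks of duplicates, whereas the labels give 3 controls, and controls 2 and 3 were nearer to each other (chi-square per degree of freedom 12.5) than to control 1 (241 and 313). Whether each library had its own flies is not in the labels, so p-values measure only the spread between libraries, which may be technical.

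The knockout libraries held 38820176 and 47805964 estimated counts, and controls 1, 2 and 3 held 41105107, 8448850 and 10388643. Levels are given in CPM, the estimated count scaled to the library total, and 3 counts correspond to 0.0628 to 0.355 CPM. BEAF-32 itself was at 50.2 and 52.8 CPM in the knockout libraries against 84.9, 136 and 144 CPM in controls (log2 fold change -1.19, SE 0.26, adjusted p = 0.0157), a call that was lost without knockout 1 or knockout 2 (adjusted p up to 0.126). The ovaries differed widely in makeup. The summed level of 10 late eggshell genes was 108 and 144 CPM in knockout ovaries against 14253 to 23309 CPM in controls, with 10 of 10 lower. Follicle cell and muscle lists went the other way. Of 7 follicle cell markers 6 were higher (1400 and 1285 against 236 to 352 CPM), as were 10 of 11 tested muscle markers (5000 and 4969 against 438 to 811 CPM). A spermatheca and oviduct list was mixed, with 2 higher and 2 lower of 4 tested. Its sum was 53.0 and 49.4 CPM in the knockout against 88.4 to 101 CPM in controls. The 6 germline markers summed to 928 and 1160 CPM against 1938 to 2329 CPM, with 3 of 6 lower. In bulk ovaries, a change in the number of cells of a type and a change in RNA per cell cannot be told apart, and the part of this difference in makeup in the results below was not tested.

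Together the 32 genes took 0.604% and 0.597% of all counts in the knockout and 0.430%, 0.422% and 0.415% in the control. The summed level was 6004 ± 44.1 CPM (SD, n = 2) against 4224 ± 72.3 CPM (SD, n = 3), a ratio of 1.42. Every knockout library lay above every control library in this sum. Without Vha16-1, the most abundant member, the ratio was 1.32. By single genes, 11 of the 21 tested members rose and 1 fell at an adjusted p under 0.05 (edgeR quasi-likelihood test with Benjamini-Hochberg adjustment over 9241 genes). Over all tested genes, 22.7% rose and 18.7% fell, 41.5% in all. The median log2 fold change, knockout minus control, was 0.61 for the tested members and 0.11 for all tested genes. Both knockout libraries lay above all controls for 16 of 21 tested members, against 37.6% of all tested genes, and below them for 2, against 30.5%. The groups thus did not overlap for 18 of 21, against 68.1% of all tested genes. Of the 21, 4 (Vha36-3, Vha68-3, Vha100-4 and VhaAC39-2) passed the filter through the knockout libraries alone, so that their difference is built into their being tested. These 4 are counted in the 11 that rose, in the 16 above all controls and in the median of 0.61. None of them is among the 14 genes that are the usual or only copy of their subunit. Of those 14, 6 rose and 11 lay above all controls, with a median of 0.48. The calls leaned on both knockout libraries: without knockout 1 or without knockout 2, 1 member was called, Vha36-3, while 9.46% and 11.1% of all tested genes were called. Without control 1, 2 or 3, the members called higher numbered 14, 4 and 6 and those called lower 3, 1 and 1, while 68.6%, 31.4% and 32.1% of all tested genes were called.

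**Figure D1:**
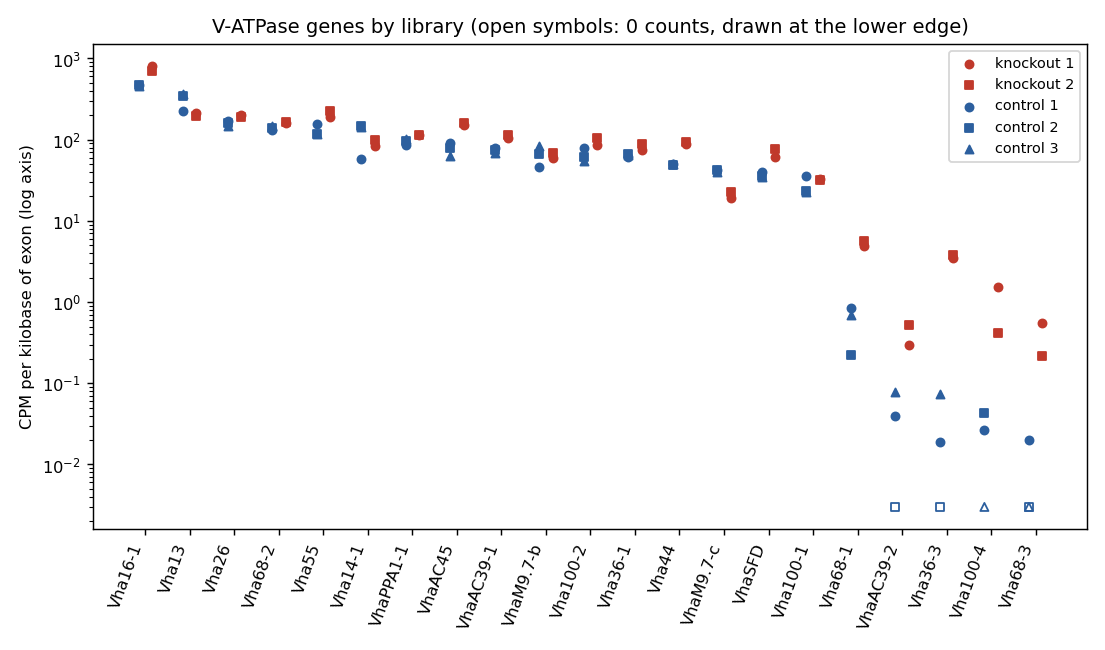
CPM per kilobase of exon (log axis) of the 21 tested V-ATPase genes in each of the 5 libraries, ordered by control mean, with red for knockout, blue for control and open symbols for 0 counts. By group mean, Vha16-1 leads at 752 in the knockout and 465 in the control, 16 genes lie above 20, and the other 5 lie far below.

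Levels between genes were compared as CPM per kilobase of exon. The length was that of all annotated exons of a gene merged, whichever transcripts were expressed, and the order depends on it. The c subunit gene Vha16-1, whose protein forms most of the proton-carrying ring, stood first in both genotypes, at 465 ± 10.5 (SD, n = 3) in the control and 752 ± 77.2 (SD, n = 2) in the knockout. Vha13, the G subunit of the peripheral stalk, was next in the control at 312 ± 73.6, and its libraries were clear of those of Vha16-1 above and Vha26 below. From Vha26 (158 ± 10.9) down to Vha36-1 (64.1 ± 2.25), each gene overlapped its neighbour in the order over the 3 control libraries. Vha44 (49.9 ± 0.938) stood clear of both neighbours, and VhaM9.7-c (41.6 ± 1.55), VhaSFD (37.0 ± 2.66) and Vha100-1 (27.2 ± 7.28) followed. The remaining members were below 1 in the control. By group mean, Vha55 moved from place 5 in the control to place 2 in the knockout and Vha14-1 from place 6 to place 10. The libraries did not separate these places. In the knockout, Vha55 (188 and 223) overlapped Vha13 (213 and 194) and Vha26 (199 and 193). The controls of Vha14-1 (58.4, 149 and 142) lay on both sides of its knockout values (82.6 and 99.7).

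For 14 subunit genes, the copy known from most tissues or the only copy was taken as the usual gene. Of these, 6 rose, 0 fell and 8 were not called. Over all tested genes 22.7% rose and 18.7% fell, 41.5% in all. The median log2 fold change of the usual genes was 0.48, and the range ran from -0.57 to 1.03. The 8 genes of V1 summed to 2495 ± 114 CPM in knockout libraries against 1958 ± 30.7 CPM in controls, a ratio of 1.27. The 5 genes of V0 summed to 3049 ± 171 and 1982 ± 49.0 CPM, a ratio of 1.54, or 1.34 without Vha16-1. No test of the difference between the sectors was made.

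In V1, genes of the catalytic head, the stalks and the regulatory subunits did not move by the same amount. Vha44 (FBgn0262511 in the table), the C subunit that helps to hold V1 on V0, was at 355 and 373 CPM in knockout libraries against 202, 197 and 204 CPM in controls. The groups were well apart and both were tight, and the gene rose (log2 fold change 0.90, SE 0.15, adjusted p = 0.00708, edgeR). VhaSFD (FBgn0027779, chromosome 2L, 16722883 to 16727826, minus strand, dm6), the regulatory H subunit, was at 174 and 218 CPM against 113, 101 and 99.5 CPM. It rose by 0.94 (SE 0.17, adjusted p = 0.0081). Vha55 (FBgn0005671, chromosome 3R, 12623762 to 12627829, minus strand), the nucleotide-binding B subunit of the head, was at 525 and 622 CPM against 429, 330 and 328 CPM. Its groups did not overlap, although control 1 lay nearer to the knockout than the other controls did, and it rose by 0.70 (SE 0.20, adjusted p = 0.0353). Leaving out any 1 library gave fold changes of 0.78 to 0.93 for Vha44, 0.81 to 1.01 for VhaSFD and 0.53 to 0.85 for Vha55, with adjusted p up to 0.101, 0.094 and 0.202. Vha44 and VhaSFD lost the call without knockout 1, knockout 2 or control 2, and Vha55 in each case except without control 1.

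The catalytic A subunit gene Vha68-2 was at 445 and 456 CPM in knockout libraries against 366, 388 and 410 CPM in controls. The groups did not overlap, but the gene was not called (0.26, SE 0.16, adjusted p = 0.226). Vha26, the E subunit of the peripheral stalk, was at 582 and 564 CPM against 493, 464 and 430 CPM, apart but short of a call (0.35, SE 0.16, adjusted p = 0.133). Vha36-1, the D subunit of the central rotor shaft, was at 78.9 and 94.4 CPM against 65.7, 70.4 and 68.5 CPM (0.38, SE 0.14, adjusted p = 0.0758). In these 3 genes both knockout libraries lay above all controls. Vha26 and Vha36-1 were called higher without control 1 (adjusted p = 0.0147 and 0.0188).

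The stalk subunits F and G were the V1 genes with values below the control mean. Vha13 was at 200.4 and 183 CPM in knockout libraries against 216, 323 and 346 CPM in controls. Both knockout libraries were below all controls, control 1 by little, and the gene was not called (-0.57, SE 0.25, adjusted p = 0.115). Vha14-1, the F subunit, was at 54.5 and 65.7 CPM against 38.5, 98.5 and 93.7 CPM. Here the controls themselves spread more than the genotypes differed (-0.31, SE 0.40, adjusted p = 0.564), with control 1 below the knockout and the other controls above it. Without control 1 both were called lower, Vha13 at -0.75 (adjusted p = 0.000856) and Vha14-1 at -0.63 (adjusted p = 0.00108). With depth class as a term, which sets the knockout chiefly against control 1, Vha14-1 was called higher instead (0.66, adjusted p = 0.00517) and Vha13 was at -0.15 (adjusted p = 0.453).

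In V0, Vha16-1 (FBgn0262736) was at 2483 and 2147 CPM in knockout libraries against 1461, 1438 and 1397 CPM in controls. The 3 controls were nearly equal and the knockout libraries stood well above them, with a rise of 0.74 (SE 0.17, adjusted p = 0.0194). VhaAC39-1 (FBgn0285910, chromosome X, 3880748 to 3882967, plus strand), the d subunit that joins the ring to the rotor shaft, was at 186 and 205 CPM against 142, 133 and 122 CPM. It rose by 0.61 (SE 0.16, adjusted p = 0.0276). Leaving out any 1 library gave 0.52 to 0.90 for Vha16-1 and 0.49 to 0.67 for VhaAC39-1, with adjusted p up to 0.204 and 0.218, and both lost the call without each library except control 1. Vha100-2, the usual a subunit that forms the proton half-channels, was at 274 and 338 CPM against 258, 197 and 176 CPM. With control 1 close to the knockout it missed the threshold (0.58, SE 0.22, adjusted p = 0.0848), and leaving control 1 out gave a call (0.76, adjusted p = 0.000545). VhaPPA1-1, the c'' subunit of the ring, was at 154 and 155 CPM against 116, 130 and 136 CPM, above all controls but not called (0.32, SE 0.16, adjusted p = 0.148). VhaM9.7-b, a small e subunit, was at 72.8 and 82.7 CPM against 56.4, 79.9 and 103 CPM. The knockout lay within the spread of the controls (0.01, SE 0.26, adjusted p = 0.982). With depth class as a term VhaM9.7-b was called higher (0.48, adjusted p = 0.0478), as was VhaPPA1-1 (0.43, adjusted p = 0.0267).

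VhaAC45 (FBgn0262515), the accessory subunit Ac45, known in other animals as a guide of pump assembly and sorting, was at 304 and 320 CPM in knockout libraries against 184, 158 and 128 CPM in controls. Both knockout values stood far above the highest control, and the gene rose by 1.03 (SE 0.21, adjusted p = 0.012), or 2.05-fold. With 1 library left out, its change stayed between 0.85 and 1.18, with adjusted p up to 0.119 and the call lost in each case except without control 1. The other accessory subunit is in the table as ATP6AP2 and so falls outside the symbol rule. It was at 169 ± 14.4 CPM in knockout libraries against 115 ± 11.2 CPM (0.59, SE 0.16, adjusted p = 0.0308), a call that was lost in 4 of 5 fits with 1 library left out (adjusted p up to 0.211).

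**Figure D2:**
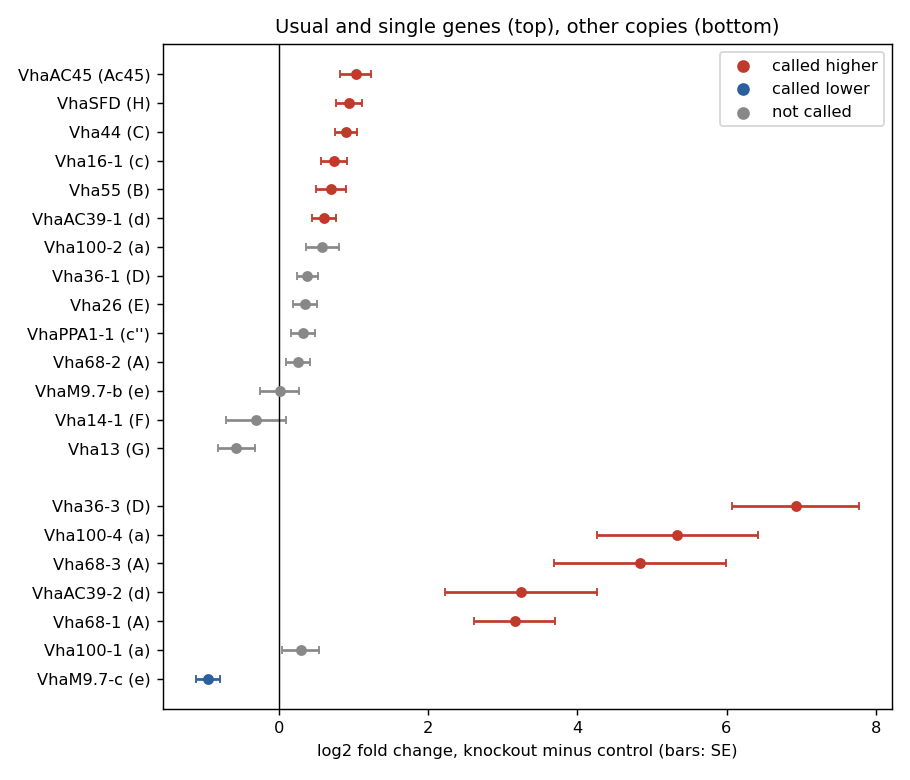
Log2 fold change, knockout minus control, with SE bars, for the 14 usual or single V-ATPase genes (top) and the 7 tested other copies (bottom), with the subunit in brackets and red, blue and grey for called higher, called lower and not called. The usual genes lie between -0.57 and 1.03, whereas 5 other copies lie between 3.16 and 6.93 and VhaM9.7-c lies at -0.95. Of these 5, all but Vha68-1 passed the filter through the knockout libraries alone, so their high values are built into their being drawn. Copies that were not tested are not drawn.

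The other 18 members are further copies of subunits that already have a usual gene. Of these, 7 were tested, 5 rose, 1 fell and 1 was not called, against 22.7% higher and 18.7% lower over all tested genes. Except for Vha68-1, the copies that rose passed the filter through the knockout libraries alone. Only Vha100-1 and VhaM9.7-c reached levels near those of usual genes. Vha100-1, the a subunit copy known from neurons, where it acts in synaptic vesicle release, was at 106 and 106 CPM in knockout libraries against 117, 77.2 and 74.2 CPM in controls. The knockout lay inside the control range (0.29, SE 0.25, adjusted p = 0.394). Leaving out control 1, the highest control, gave a call (0.54, adjusted p = 0.00232), and depth class as a term turned the direction (-0.12, adjusted p = 0.458). The 7 neuron markers summed to 21.5 and 21.5 CPM in knockout libraries against 5.89 to 8.76 CPM in controls. Of 4 tested, 1 rose, elav, at 19.9 and 19.6 CPM against 4.74 to 6.27 CPM. The synapse gene brp was at 0.180 and 0.146 CPM against 0.754, 2.25 and 0.481 CPM (-2.71, SE 0.98, adjusted p = 0.0713), nSyb was at 0.979 and 1.02 CPM against 0 to 0.219 CPM (2.66, SE 0.94, adjusted p = 0.0658), and the transmitter genes VGlut and ChAT were at 0 in every library.

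VhaM9.7-c (FBgn0028664), a further copy of subunit e, was the member that fell. It was at 16.4 and 19.2 CPM in knockout libraries against 35.6, 36.3 and 33.8 CPM in controls. The controls were nearly equal and both knockout libraries were far below them (-0.95, SE 0.16, adjusted p = 0.00656). With 1 library left out the change was -1.03 to -0.93, and no call was made without knockout 1 or knockout 2 (adjusted p = 0.0858 and 0.075). Its direction was opposite to that of 11 called members.

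Vha68-1 (FBgn0265262, chromosome 2L, 13000770 to 13004107, minus strand), a further copy of the catalytic A subunit, was at 13.2 and 15.3 CPM in knockout libraries against 2.26, 0.592 and 1.84 CPM in controls. The groups were far apart, and the gene rose by 3.16 (SE 0.54, adjusted p = 0.00735), or 8.91-fold. With knockout 1 or knockout 2 left out it was no longer called (adjusted p = 0.0791 and 0.0728). Reads shared with Vha68-2 were divided between the copies by the authors' counting: knockout 1 had 512.032 counts on Vha68-1 and 17260.969 on Vha68-2, which sum to within 0.001 of a whole number. Controls 2 and 3 showed the same pattern, with 5.003 and 19.12 counts on Vha68-1, so the level of the weaker copy is uncertain. Knockout 2 and control 1 had whole counts on both genes, 731 and 93 for Vha68-1.

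Vha36-3 (FBgn0040377, chromosome X, 2579091 to 2580560, minus strand), a further copy of the D subunit, was at 4.48 and 4.96 CPM in the knockout, or 174 and 237 counts. The 3 controls together had 2 counts (0.0243, 0 and 0.0963 CPM). Pooled over libraries the ratio was 142, with an exact Poisson interval of 39.1 to 1178 at 95% that covers counting error only. The fitted change was 6.93 (SE 0.85, adjusted p = 0.00256). It was the 1 member whose call held with each library left out in turn (6.40 to 7.61, adjusted p up to 0.0493). Because Vha36-3 passed the filter through the knockout libraries alone, its difference is built into its being tested.

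Vha100-4 (FBgn0038613, chromosome 3R, 18386841 to 18389805, minus strand), a further copy of subunit a, was at 4.17 and 1.15 CPM in knockout libraries against 0.0730, 0.118 and 0 CPM in controls. The knockout libraries differed from each other but both exceeded the controls, with 217 counts against 4 (ratio 37.5, interval 14.5 to 139). It rose by 5.34 (SE 1.08, adjusted p = 0.0127). The gene lies 517 bases downstream of Vha100-2 on the same strand and shares 47 exon bases (1.72% of its length) with cona on the opposite strand, which was at 5.59 ± 1.02 CPM in knockout libraries against 0.322 ± 0.223 CPM in controls. How the counting treated strand is not given in the sources used here. Vha68-3 (FBgn0032464, chromosome 2L, 12978786 to 12981293, plus strand), a further A subunit copy, had 52 and 25 counts in the knockout (1.34 and 0.523 CPM) and 2, 0 and 0 in the control (ratio 26.6, interval 7.13 to 224). It rose by 4.84 (SE 1.15, adjusted p = 0.021) and lies 178 bases downstream of Vha68-2 on the same strand, a gene at 450 CPM in the knockout. VhaAC39-2 (FBgn0039058), a d subunit copy, had 14 and 31 counts against 2, 0 and 1 (ratio 10.4, interval 3.33 to 52.2) and rose by 3.24 (SE 1.02, adjusted p = 0.0483). Leaving out 1 knockout library ended the calls of Vha100-4 (4.00, adjusted p = 0.184, and 6.01, adjusted p = 0.0562) and Vha68-3 (3.98, adjusted p = 0.232, and 5.48, adjusted p = 0.105). VhaAC39-2 was called in no fit with 1 library left out (adjusted p = 0.0641 to 0.249 in the 3 that tested it). Vha100-4, Vha68-3 and VhaAC39-2 passed the filter through the knockout libraries alone, so their differences are built into their being tested.

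A list of 16 testis markers was read beside these low copies. Its summed level, 13.7 and 15.6 CPM in knockout libraries against 7.47, 15.4 and 17.5 CPM in controls, overlapped between genotypes. Of 4 tested, 2 were called higher, the testis transcription regulator genes mia, at 6.03 and 8.33 CPM against 0.924, 0.473 and 1.83 CPM, and aly. The latter was at 0.412 and 0.293 CPM and 0 in all controls, so it passed the filter through the knockout alone and its call is built into its being tested. The most abundant marker, janB, was at 5.41 and 6.44 CPM against 6.40, 14.9 and 14.5 CPM, with the groups overlapping (-0.96, SE 0.43, adjusted p = 0.124). Of the 16 markers 10 were at 0 in all controls, and of these 10, 2 were at 0 in every library, 6 had counts in knockout 1 only and 2 in both knockout libraries. Hemocyte markers, 3 of 5 tested higher, summed to 641 and 703 CPM against 21.3 to 70.3 CPM. Most of that knockout sum was Ppn (439 and 468 CPM) and Pxn (192 and 226 CPM). Hml was at 7.68 and 7.17 CPM in the knockout against 0.578 to 1.87 CPM in controls. Sr-CI, at 1.08 and 1.40 CPM in the knockout, and eater, at 1.13 and 0.920 CPM, were not called. Fat body markers, 2 of 4 higher, summed to 180 and 115 CPM against 34.0 to 54.9 CPM. The part of such cells in the levels of the low copies was not tested.

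Among the 11 members that were not tested, 7 were at 0 in all libraries: Vha16-2, Vha16-3, Vha16-4, Vha100-3, VhaM9.7-a, VhaM9.7-d and VhaPPA1-2. A count of 0 allows up to 0.0346 CPM over the pooled knockout libraries and 0.050 CPM over the pooled controls. Vha16-5 had 4 and 6 counts in the knockout and 0 in the control, 2.31-fold above that floor of 3 counts over the group. Vha14-2 had 2 and 7 counts against 0, 2.08-fold above the floor. Vha36-2 went the other way, with 0 counts in the knockout and 4, 2 and 0 in the control. Its control level was 2.89-fold above the knockout floor. These values leave out counting error in the group that had counts, so they are not lower bounds.

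Vha100-5, a further subunit a copy, was present in 1 library only. Control 1 had 107 counts (2.60 CPM), and the other 4 libraries had 0, where the level of control 1 would have given 22.0 counts in control 2 and 27.0 in control 3. A list of 10 gut and Malpighian tubule markers stood out in the same library, at 67.7 CPM in control 1, 1.07 and 0.193 CPM in the other controls and 1.83 and 2.84 CPM in the knockout. The digestive protease gene alphaTry was at 23.8 CPM in control 1 and at most 0.330 CPM elsewhere. The part of these genes' source in the Vha100-5 counts was not tested, and nothing about the knockout is read from this gene.

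**Figure D3:**
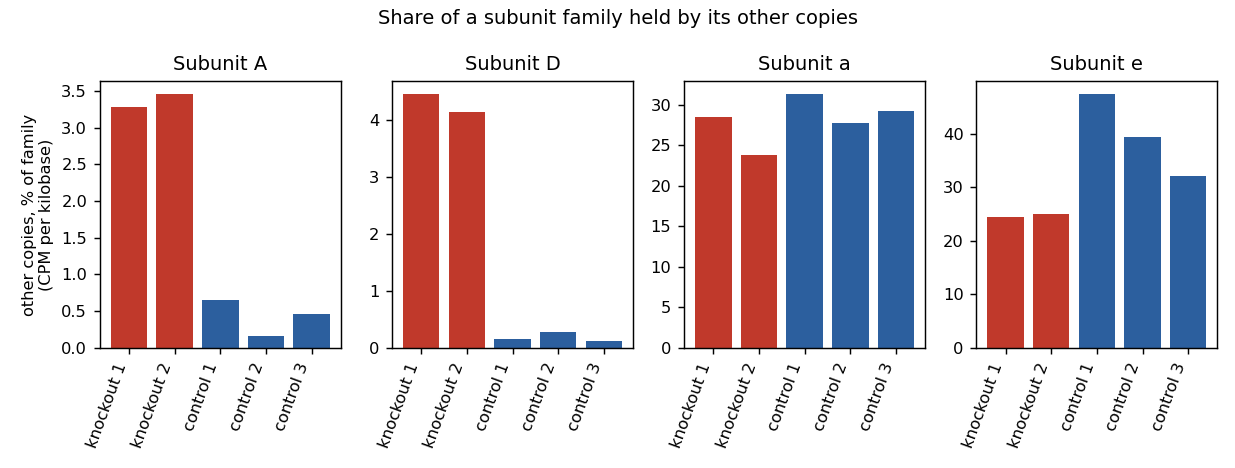
Share of each of 4 subunit families (A, D, a and e) held by its other copies, in percent of the family's summed CPM per kilobase, as 1 bar per library with red for knockout and blue for control and a separate axis per panel. The shares of A and D are higher in both knockout libraries, that of e is lower, and that of a overlaps.

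Set against their families, most of the other copies remained minor in both genotypes. Per kilobase, the other A copies held 3.29% and 3.46% of their family in the knockout and 0.649%, 0.157% and 0.460% in the control. For D the shares were 4.46% and 4.14% against 0.152%, 0.275% and 0.115%. The control shares of D rest on few counts, 4, 2 and 0 for Vha36-2 and 1, 0 and 1 for Vha36-3. The A share of control 2 likewise rests on 5.003 counts of Vha68-1. The groups of both families were far apart, yet the usual copy kept over 95% in every library. Within subunit a, Vha100-1 and the rarer copies held 28.5% and 23.8% against 31.4%, 27.8% and 29.2%, so that 1 knockout library lay inside the control range. In the e family the balance shifted toward VhaM9.7-b, with VhaM9.7-c at 24.39% and 24.97% of it in the knockout and 47.5%, 39.5% and 32.1% in the control. The control with the highest share, control 1, had the lowest level of VhaM9.7-b, and the fall of VhaM9.7-c was in both knockout libraries. The d, F and c copies held at most 0.457%, 0.0875% and 0.0248% in any library, and no c'' copy was detected.

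Control 1 stood apart from controls 2 and 3 in a way that followed gene length, and several V-ATPase genes followed it. Over all tested genes, log2(CPM + 0.5) in control 1 minus the mean of controls 2 and 3 had a median of -0.41 for 1308 genes with under 1000 exon bases and 0.41 for 3028 genes with 3000 or more. The short genes Vha14-1 (659 bases), Vha13 (943) and VhaM9.7-b (1216) were at -1.31, -0.63 and -0.68 in this difference. The long genes Vha100-1 (3289 bases) and Vha100-2 (3222) were at 0.63 and 0.47. VhaM9.7-c (848 bases), Vha44 (4023) and Vha16-1 (3077) were at 0.02, 0.01 and 0.04, so these members kept equal control levels. Vha13, Vha14-1, Vha100-1 and Vha100-2 are 4 of the 6 members called without control 1 but not with it, while the rises of Vha44 and Vha16-1 and the fall of VhaM9.7-c were of like size with and without it. Without control 1, the changes of these 3 were 0.91, 0.76 and -0.93, all called. The part of control 1's length pattern in each result was not tested.

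**Figure D4:**
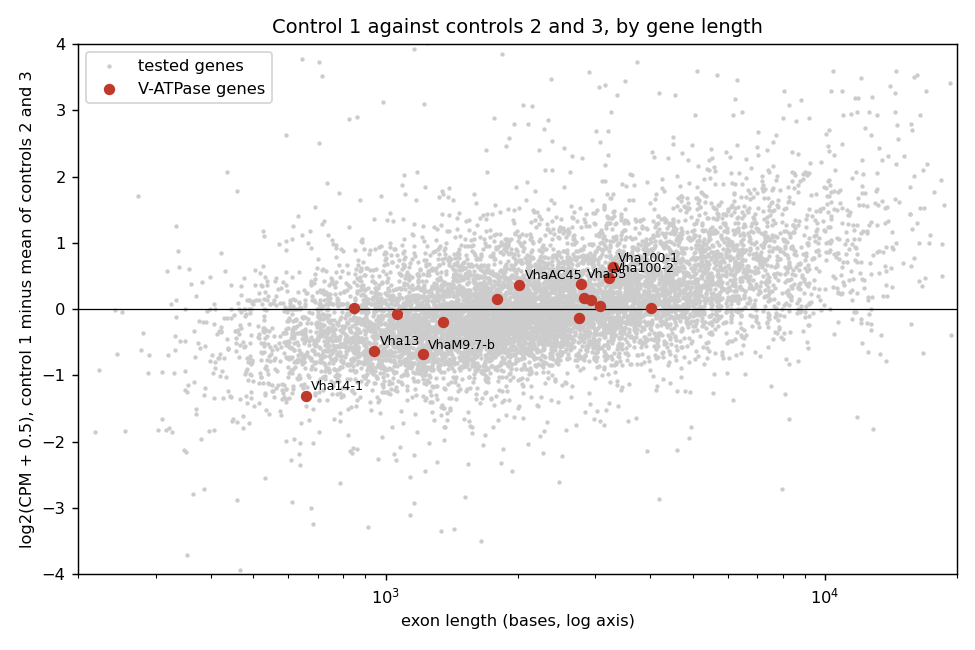
Log2(CPM + 0.5) in control 1 minus the mean of controls 2 and 3, against exon length (log axis), for tested genes within the plotted range (grey) and 16 V-ATPase genes (red). Vha14-1, at 659 bases, lies at -1.31 and Vha100-1, at 3289 bases, at 0.63.

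**Figure D5:**
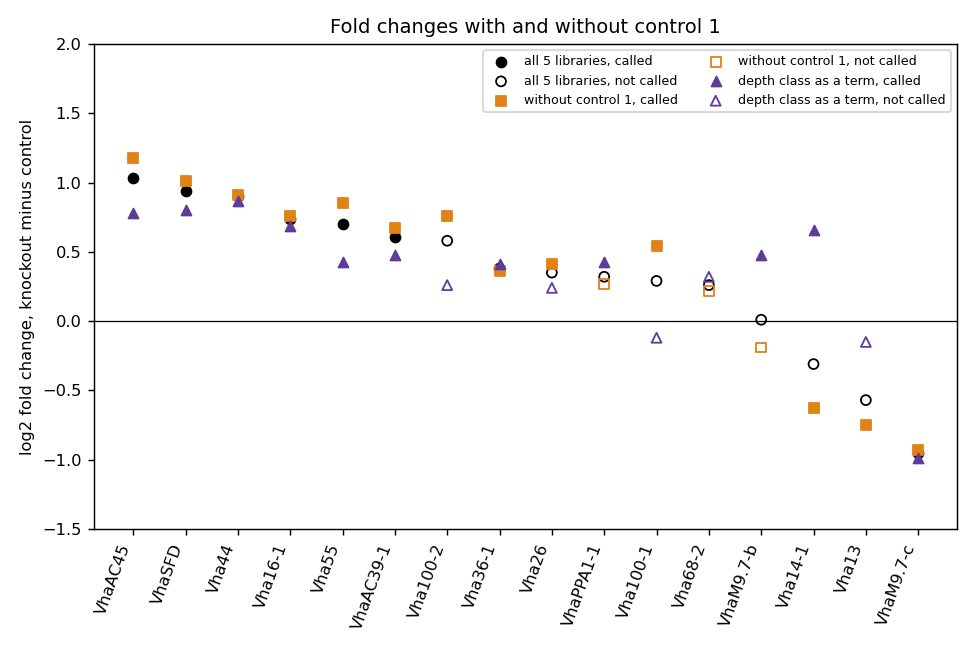
Log2 fold change of 16 V-ATPase genes with all 5 libraries (black circles), without control 1 (orange squares) and with depth class as a term (purple triangles), filled where called. Vha44 and VhaM9.7-c hardly move, whereas Vha14-1 goes from -0.63 without control 1 to 0.66 with depth class.

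The members lie on all major chromosome arms, with 11 on 3R, 8 on 2R, 6 on 2L, 5 on 3L and 2 on X. BEAF-32 is known to bind between closely spaced genes that diverge. Of the 21 tested members, 9 (42.9%) had a protein-coding gene on the opposite strand that started within 500 bases upstream, against 32.9% of 9156 tested protein-coding genes. No binding data were used here. Of these 9 pairs, 7 had a tested partner, of which 4 had fold changes of the same sign and 3 of opposite sign, and in 1 pair both genes were called. VhaAC45, which rose, starts 437 bases from Gnptab (CG8027 in the table), whose mammalian counterpart tags enzymes for the lysosome and which fell (-1.72, SE 0.21, adjusted p = 0.0025). Vha100-1, not called, starts 221 bases from the augmin subunit gene dgt6, which fell (-0.999, SE 0.16, adjusted p = 0.006) but was not called without either knockout library (adjusted p up to 0.0812). Vha68-1, which rose, starts 373 bases from Tor, the growth kinase that is activated at the lysosome, at 0.59 (SE 0.49, adjusted p = 0.36). Vha55 pairs with Snx3 at 202 bases (0.40, SE 0.19, adjusted p = 0.148), Vha26 with noi at 304 bases (-0.20, SE 0.19, adjusted p = 0.411) and Vha36-1 with CG8187 at 72 bases (0.44, SE 0.19, adjusted p = 0.114). VhaM9.7-b pairs with COX8 at 415 bases (0.15, SE 0.20, adjusted p = 0.566). The partners of Vha36-3 and Vha14-1 were not tested.

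Other genes of the pump's surroundings were read from lists of known function. Of 7 genes for assembly and regulation, 1 rose, ATP6AP2, and 1 fell, against 41.5% called over all tested genes. The gene that fell was Mitf, the fly counterpart of the TFEB family, a transcription factor known to activate V-ATPase and lysosome genes. It was at 101 and 121 CPM in knockout libraries against 357, 263 and 210 CPM in controls, clear of overlap (-1.29, SE 0.28, adjusted p = 0.0151). Leaving out 1 library gave -1.52 to -1.05, and the call was lost without either knockout library (adjusted p up to 0.132). ATP6AP2 kept its call without control 1 only (0.48 to 0.62). The assembly factor gene Rbcn-3A was at 234 and 260 CPM against 329, 135 and 160 CPM, inside the control range (0.28, SE 0.41, adjusted p = 0.609). The median of this list was -0.44, against 0.11 for all tested genes.

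Of 12 tested genes for lysosome enzymes and membrane proteins, 7 rose and 1 fell, with a median of 1.25. Over all tested genes 22.7% rose and 18.7% fell. Npc1a, a sterol transporter of the lysosome, was at 284 and 291 CPM in knockout libraries against 75.1, 62.0 and 55.8 CPM in controls (2.20, SE 0.19, adjusted p = 0.000975). The Batten disease counterpart Cln3 rose by 3.33 (SE 0.33, adjusted p = 0.00135) and the cathepsin gene CtsB1 by 1.34 (SE 0.15, adjusted p = 0.00187). Trpml, the lysosomal calcium channel gene, was the 1 that fell (-0.85, SE 0.14, adjusted p = 0.00717) and is named for that, after its value was seen. The calls of Npc1a, Cln3 and CtsB1 held with each library left out in turn (adjusted p up to 0.0227, 0.0222 and 0.0372), whereas that of Trpml was lost without either knockout library (adjusted p up to 0.0998). Lamp1, a lysosomal membrane protein, was at 332 and 334 CPM against 344, 715 and 757 CPM, with control 1 next to the knockout, and missed the threshold (-0.81, SE 0.35, adjusted p = 0.114).

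Of 16 tested genes for endosome and lysosome traffic, 2 rose and 2 fell, against 41.5% called over all tested genes, with a median of 0.04. The late endosome GTPase gene Rab7 rose from 108 ± 13.7 to 427 ± 28.4 CPM (2.03, SE 0.19, adjusted p = 0.00108), whereas Rab5 and Rab11 of early and recycling endosomes were at 0.20 (SE 0.23, adjusted p = 0.521) and -0.02 (SE 0.20, adjusted p = 0.946). Of 9 tested genes of the TORC1 kinase pathway at the lysosome 1 rose, Iml1 (0.80, SE 0.20, adjusted p = 0.0242), and 2 fell, Nprl3 (-1.53, SE 0.18, adjusted p = 0.00244) and raptor (-0.76, SE 0.20, adjusted p = 0.0279). Of 8 chloride channel and proton exchanger genes, 4 rose and 2 fell. The background for this list and for the TORC1 list was the same 41.5% called over all tested genes. ClC-a rose by 2.95 (SE 0.20, adjusted p = 0.00056) and Nha1 fell from 10.4 ± 1.30 to 0.556 ± 0.131 CPM (-4.17, SE 0.40, adjusted p = 0.00123). With each library left out in turn, the calls of Rab7, Nprl3, ClC-a and Nha1 held (adjusted p up to 0.0206, 0.0473, 0.0155 and 0.0277). Iml1 was called only without control 1 (0.60 to 0.92, adjusted p up to 0.166), and raptor was not called without either knockout library or control 3 (-0.97 to -0.66, adjusted p up to 0.188).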

How the data were processed

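Directional RNA-seq libraries were made from ovarian total RNA, per the labels' protocols. The submitters' processing notes name Salmon 1.2.1, STAR 2.7.5b, Trim Galore 0.6.6 and FastQC 0.11.8, and build dm6, with no settings. The authors deposited estimated counts per gene, unscaled and with fractions, in 1 table. Columns were matched by sample description and groups by title.

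Counts were rounded. edgeR 4.0.16 (filterByExpr by group, minimum count 10, TMM, robust glmQLFit and glmQLFTest, no covariate, 5 libraries, two-sided) gave fold changes for 9241 genes, called at an adjusted p under 0.05. Each SE was derived from the F statistic. Levels use column totals. Exon lengths and positions are from Ensembl release 115 (dm6 coordinates), with 31 members matched by identifier and Vha44 by symbol. Intervals and floors cover counting error only, and fold values against a floor leave out counting error in the other group. The methods were tested on simulated data, which lacked control 1's length pattern. No 2 libraries of the same group agreed within sampling noise.

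The members, the usual and other copies and all lists were chosen with earlier results of these data known, from general knowledge. All members may be named, and of each other list up to 3 called genes with the smallest p and 2 uncalled with the highest CPM. Trpml, VGlut and ChAT are outside this rule and were chosen after their values were seen. Alternatives were other scalings, filters, DESeq2 1.42.0, limma-voom 3.58.1, a replicate block, depth class (control 2 and 3 shallow) as a term and leaving out each library. With 2 against 3 libraries an exact permutation test cannot go below p = 0.1.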

Additional observations from a re-analysis of the deposited data

How the results depend on the processing

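The 12 called V-ATPase genes kept their direction in all 166 other fits. Their groups did not overlap, so fits on the same libraries could hardly reverse them. Members that were not called changed sign or rounded to 0 in 12 fits. With all 5 libraries 3831 genes were called, 2102 higher and 1729 lower. With 1 library left out, these counts ran from 878 to 6083, from 475 to 3352 and from 403 to 2731. The V-ATPase genes called higher ran from 1 to 14 and those called lower from 0 to 3. The replicate block left 6 V-ATPase genes higher and 1 lower. The labels give no shared origin for the numbers. Deviations from the group means correlated at 0.12 for knockout 1 with control 1 and 0.089 for knockout 2 with control 2. With 2 knockout libraries their deviations mirror each other, so this check cannot tell whether libraries of the same number share a batch. Under the block, Vha16-1, Vha55, VhaAC39-1, Vha68-3 and VhaAC39-2 were not called (adjusted p = 0.0543 to 0.219). Vha14-1 reversed to 0.66 with depth class as a term. VhaAC39-2 was also not called with total-count scaling, without the filter, with DESeq2 or with depth class (adjusted p = 0.0528 to 0.0959), and Vha55 and VhaAC39-1 not without the filter (0.0779 and 0.0706). DESeq2 called 12 higher and depth class 14, with 49.9% and 54.7% of all tested genes called against 41.5%. RLE and upper quartile scaling, removal of rRNA genes and limma-voom changed no member's call. On CPM in place of length-scaled values, the gain in share of the other copies was 4.96 percentage points for D (4.12 per kilobase), 0.158 for F (0.0623) and 0.0050 for c (0.0212), by construction of the scale. Causes of lost calls were not tested. Depth limits the low copies, where 3 counts are 0.355 CPM in control 2.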
